A study of Saccharomyces cerevisiae with 10 samples.

Results

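RNA of 7 budding yeast cultures was compared: 3 cultures that lived on the nonsense allele *sup35-218* and 4 that lived on wild-type *SUP35*, each allele carried by a plasmid with the *LEU2* marker. *SUP35* codes for eRF3, the GTPase that works with eRF1 (Sup45) to end translation at stop codons. It is essential, so a strain with a premature stop codon in its only copy lives on the small amount of full-length protein that ribosomes make when they read through that stop. These 7 cultures were all those at stage 3 of the plasmid exchange, out of 10 cultures in the series. The remaining 3 are the starting *SUP35* strain on a *URA3* plasmid (stage 1), and they entered the fit as a group of their own. They are mentioned below only where a level in the starting strain bears on the comparison.

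All cultures share one laboratory background, labelled *MATa*, with the nonsense alleles *ade1-14* (UGA) and *trp1-289* (UAG), the markers *leu2-3,112*, *ura3-52*, *lys2* and *his3-d200*, and with the chromosomal *SUP35* replaced by the *HIS3MX* cassette. The stage 3 strains came from the starting strain by transformation with the second plasmid and loss of the first on 5-fluoroorotic acid, and the plasmids were centromeric. The labels list pRSU1-218 in the mutant. They list pRSU2, the plasmid of the starting strain, in the *SUP35* cultures of both stages, whereas the study's methods give pRSU1 with *LEU2* for *SUP35* at stage 3. The plasmid markers in the files bear on this: *LEU2* had 2574, 2586, 1733 and 2743 normalised CPM (read counts scaled to a common library size by the TMM method) in *SUP35* replicates 1 to 4, against 1853, 1589 and 1434 CPM in the 3 stage 1 cultures. *URA3*, the marker of the starting plasmid, had 71.9, 73.7, 87.5 and 94.4 CPM at stage 3 and 829, 882 and 1091 CPM at stage 1. At stage 3 the *SUP35* cultures were thus far below the starting strain for *URA3*. Replicates are described in the methods as biological, with no statement that they came from separate transformants. The p-values therefore set each group difference only against the spread among these cultures, estimated over all 10 in the fit.

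The mutant and its reference codon can be read from the genome. The substitution G541T, counted from the first base of the coding sequence, falls in codon 181 of 685 and turns a glutamate codon into the stop codon TAA, with C as the next base. The stretch lies on chromosome IV, plus strand, in the single exon of *SUP35*, at chrIV:808834-808897 of the R64 build, and capitals mark codon 181.
reference: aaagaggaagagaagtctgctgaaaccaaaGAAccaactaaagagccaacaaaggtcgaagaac
sup35-218: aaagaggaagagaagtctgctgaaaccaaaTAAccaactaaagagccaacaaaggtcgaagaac
Both sequences are from the RefSeq genome, the second with the substitution written in. The base change itself was not read here, because the files hold counts per gene.

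The 7 cultures held 3267203 to 4024015 counts each. A gene was tested if it passed a filter on low counts, which 5856 of 6607 genes did, and a gene was called higher or lower when the adjusted p was under 0.05 and the log2 fold change (log2FC, *sup35-218* minus *SUP35*) was above 0.5 or below -0.5, that is a 1.41-fold difference. By this rule 628 genes were higher (10.7% of those tested) and 735 were lower (12.6%), which is 23.3% in all. The median log2FC over all tested genes was -0.01. The groups did not overlap in 43.7% of tested genes, 1221 of them higher and 1337 lower. Of the calls, 468 of the higher genes and 472 of the lower genes were made whichever of the 7 cultures was left out. The counts of each list below are to be read against 10.7% and 12.6%. No list was given a p-value, since the lists were drawn up with earlier results of these data known. In bulk RNA, a change in the share of cells that use a gene and a change in the amount per cell cannot be told apart, and all levels are relative to the other RNA in the culture.

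Before the results, 3 features of the libraries need stating. First, the cultures are labelled *MATa*, but the genes of alpha cells were the more abundant set. *MF(ALPHA)1*, the alpha pheromone gene, had 828, 768, 675 and 733 CPM in *SUP35* replicates 1 to 4 and 681, 474 and 449 CPM in *sup35-218* replicates 1 to 3. The 4 alpha-cell markers summed to 1384 to 1680 CPM in *SUP35* and 752.6 to 1042 CPM in *sup35-218*, and the 6 a-cell markers to 88.59 to 226.3 and 96.9 to 116.2 CPM. None of the 4 alpha-cell markers was at 0. At stage 1 the alpha-cell markers stood at 1424 to 1830 CPM and the a-cell markers at 235.8 to 597.6 CPM, so the mismatch with the label was present in the starting strain. The genes at *MAT* itself had almost no counts, and they have identical copies at the silent loci, so they give no answer. Whether the label, the strain or a mixture of cells is behind these levels was not tested.

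Second, the *SUP35* cultures were not interchangeable. Among the 735 lower genes, *SUP35* replicate 1 was the highest of the 4 in 60.4% and replicate 4 the lowest in 55.4%, against 31.2% and 32.3% of all tested genes. Without replicate 1, 578 genes were lower in place of 735. Single calls that rest on that culture are named below. Last, counts were assigned to *HIS3* although the label gives *his3-d200*, and counts per gene do not show where the reads arose. *HIS3* had 638, 573, 455 and 359.5 CPM in *SUP35* and 197, 247 and 146 CPM in *sup35-218* (log2FC -1.36 ± 0.20, with ± for its standard error here and below, adjusted p = 0.000173). The *HIS3MX* cassette that replaces *SUP35* carries the fission yeast counterpart of *HIS3*, and its part in these counts was not tested. The gene next to it, *YOR203W*, had 19.3 against 3.66 CPM on average and overlaps *HIS3* over 12.4% of its length. The next one, *DED1*, which codes for a helicase of translation initiation, went the other way, with 58.2, 81.6, 78.1 and 58.3 CPM in *SUP35* and 154, 165 and 242 CPM in *sup35-218* (log2FC 1.44 ± 0.17). All 3 genes had groups that did not overlap.

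The plasmid allele was the first place to look. *SUP35* had 809, 546, 505 and 547 CPM in replicates 1 to 4 of *SUP35* and 2185, 1833 and 1919 CPM in replicates 1 to 3 of *sup35-218*, and the groups did not overlap. Both chromosomal neighbours of *SUP35* were higher in the mutant as well. *ARG82*, an inositol polyphosphate kinase gene just downstream on the opposite strand, had 443, 275, 278 and 270.3 CPM in *SUP35* and 759.96, 615 and 643 CPM in *sup35-218* (log2FC 1.09 ± 0.16, adjusted p = 0.000234). *SUP35* replicate 1, the highest control for *SUP35*, was also the highest for *ARG82*. *HSP42*, a small heat shock protein gene just upstream, had 2575, 1994, 2418 and 1614 CPM in *SUP35* against 3379, 3583 and 4973 CPM in *sup35-218* (log2FC 0.89 ± 0.18, adjusted p = 0.00181). The next genes out, *SEC7* (log2FC -0.20) on one side, and *HMO1* (-0.19), *RSM24* (-0.07) and *NGG1* (-0.17) on the other, were not called. Beyond these, *STB3* (0.63) and *CDC37* (0.52) were higher and *TAF10* (-0.72) and *UBC1* (-0.54) lower, although *CDC37* lost its call without *SUP35* replicate 1 or *sup35-218* replicate 3 and *UBC1* without *SUP35* replicate 1 or 2 or *sup35-218* replicate 2 or 3 and under upper-quartile scaling. Which stretch of chromosome IV the plasmids carry was not given in the sources used here.

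**Figure D1:**
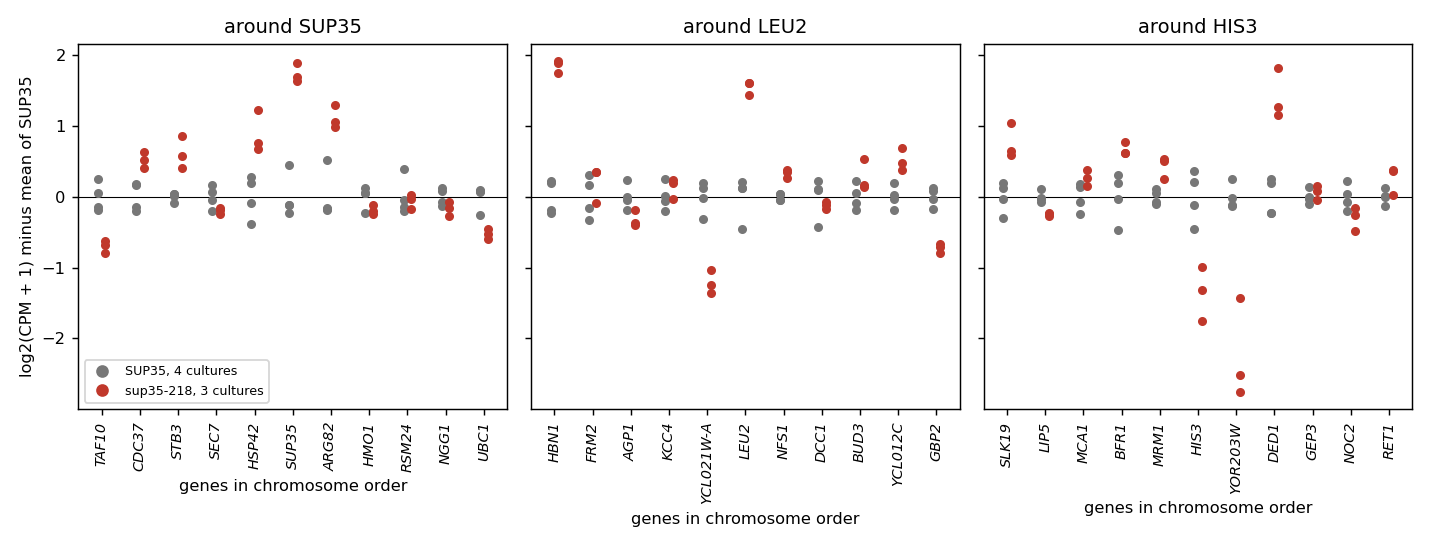
Level of each gene in each culture, as log2(CPM + 1) minus the mean of the 4 *SUP35* cultures, for the 5 tested genes on either side of *SUP35*, *LEU2* and *HIS3* in chromosome order. Grey points are *SUP35* cultures and red points *sup35-218* cultures, and the genes on both sides of *SUP35*, but not those on both sides of *LEU2*, were raised in all 3 mutant cultures.

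At *LEU2* the genes next to the marker were not called higher with it. *LEU2* itself had 7221, 6454 and 7194 CPM in the 3 mutant cultures, all above the *SUP35* cultures (log2FC 1.53 ± 0.17). *NFS1*, the cysteine desulfurase gene beside it, was above all *SUP35* cultures in the 3 mutant cultures (log2FC 0.33 ± 0.09, adjusted p = 0.00848). It was under the fold threshold and so was not called. *DCC1* (-0.14) and *BUD3* (0.28) were not called either. On the other side the nearest tested gene, *YCL021W-A*, was lower (-1.25). Among the 5 tested genes on either side *GBP2* was lower too (-0.73), and *YCL012C* (0.52, lost without *SUP35* replicate 2 or *sup35-218* replicate 1) and *HBN1* (1.87) were higher. The auxotrophic marker genes differed in the opposite direction: *LYS2* (log2FC -1.45) and *ADE1* (-1.06) were lower, as was *TRP1* (-0.52), whose call was lost without *SUP35* replicate 1 or 2 or *sup35-218* replicate 1 or 3 and under upper-quartile scaling. *ADE1* and *TRP1* carry the nonsense alleles by which suppression is scored in this background. *SUP45*, the partner of Sup35, had 285 against 277 CPM and was not called (log2FC -0.04 ± 0.11).

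Over single genes, the 10 largest rises among well counted genes were led by *SUC2*, *RGI2*, *MAN2*, *CLB4* and *YNR066C*, and went on with *TMA10* (log2FC 1.93 ± 0.20), *BSC1* (1.92 ± 0.18), *HBT1* (1.92 ± 0.14), *GRX8* (1.92 ± 0.32) and *HSP30* (1.89 ± 0.22). *BSC1*, whose name stands for bypass of stop codon, had 15.5, 24.2, 21.9 and 15.6 CPM in *SUP35* and 86.5, 61.7 and 71.5 CPM in *sup35-218*. Its neighbour *PRM7*, named here after its values were seen, went with it (log2FC 1.61 ± 0.15). *GRX8*, a glutaredoxin gene, had 30.3, 28.3, 28.9 and 40.9 CPM in *SUP35* against 167, 45.8 and 150.3 CPM in *sup35-218*, and *HSP30*, which codes for a membrane protein induced by heat, 588, 842, 1024 and 702 CPM in *SUP35* against 2170.02, 2918 and 3695 CPM in *sup35-218*. The groups of these genes did not overlap, which was part of how the 10 were chosen. At stage 1 *HSP30* stood between the stage 3 groups, at 1348, 1961 and 1192 CPM.

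The 10 largest falls were those of *CTT1*, *NDE2*, *YSW1*, *YMR320W*, *URA10* (log2FC -2.32 ± 0.19), *YHI9* (-2.23 ± 0.16), *PIC2* (-2.10 ± 0.20), *PIR5* (-2.09 ± 0.20), *COX26* (-2.07 ± 0.45) and *YOR1* (-1.92 ± 0.14). *URA10*, the minor orotate phosphoribosyltransferase of pyrimidine synthesis, had 1172, 816, 815 and 685 CPM in *SUP35* and 174, 188 and 162 CPM in *sup35-218*. *PIC2*, a mitochondrial phosphate and copper carrier gene, had 719, 522, 475 and 398 CPM in *SUP35* against 144, 127 and 99.8 CPM in *sup35-218*. *YOR1*, an exporter of the ABC family, had 916, 678, 766 and 642 CPM in *SUP35* against 230.4, 178 and 187 CPM in *sup35-218*. *COX26*, a small protein of cytochrome oxidase, varied most among controls, at 302, 105, 166 and 62.9 CPM against 38.3, 37.4 and 38.1 CPM.

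**Figure D2:**
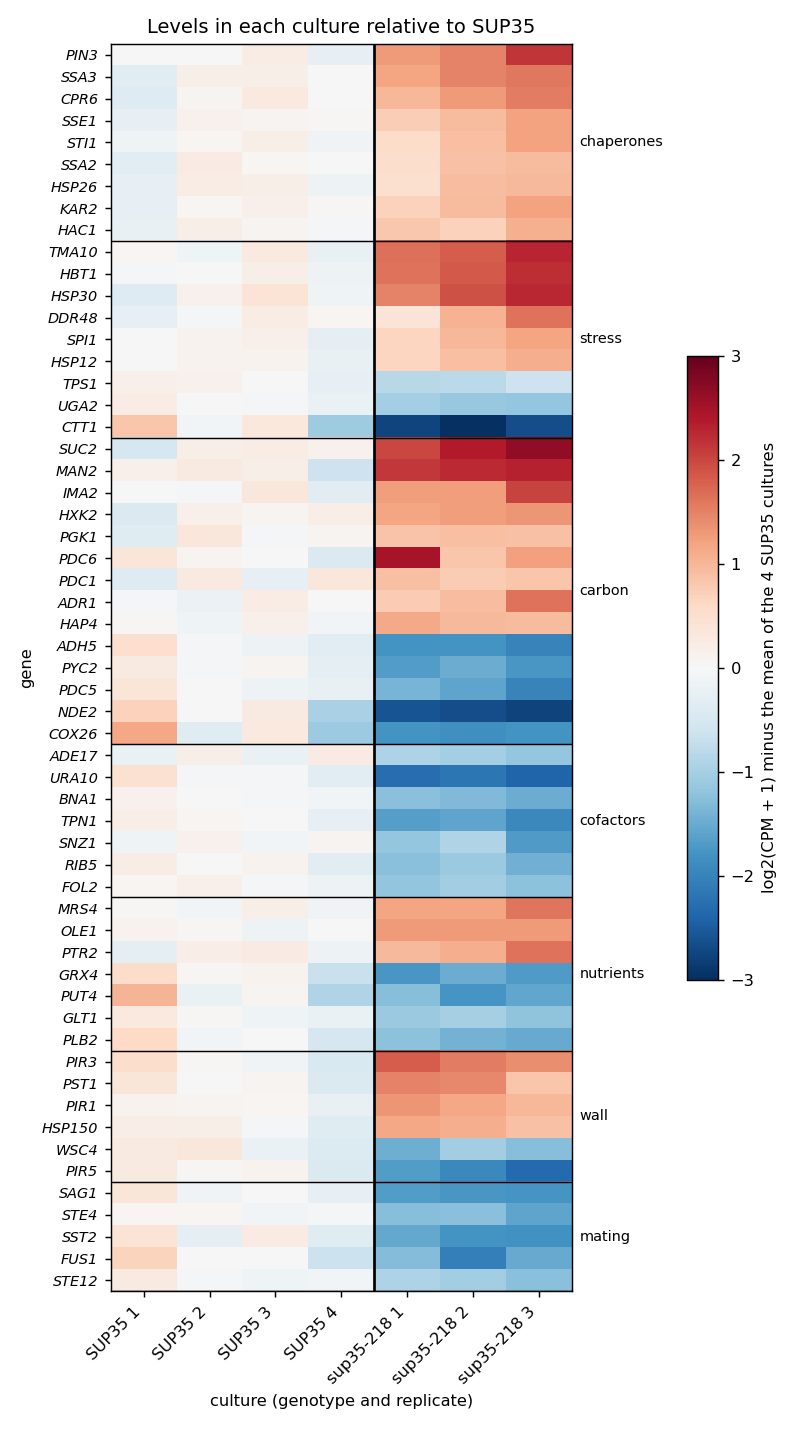
Level of named genes in each of the 7 stage 3 cultures, as log2(CPM + 1) minus the mean of the 4 *SUP35* cultures, with red above and blue below that mean. The 3 *sup35-218* cultures carry the same sign for every gene shown, and *SUP35* replicates 1 and 4 stand at opposite ends for *CTT1*, *NDE2*, *COX26*, *PUT4* and *FUS1*.

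Protein folding was the first process examined, because Sup35 is itself a prion protein whose aggregates are cut and carried by chaperones. Of 53 tested genes for cytosolic chaperones and Hsp90 partners, 15 were higher (28.3%) and 2 lower, with a median log2FC of 0.30. *PIN3*, known for inducing the prion form of Sup35, had 322, 315, 373 and 269 CPM in *SUP35* and 774, 886 and 1407 CPM in *sup35-218* (log2FC 1.68 ± 0.18, adjusted p = 2.1e-05). *SSA3*, the stress-induced Hsp70, had 207, 296, 298 and 264 CPM in *SUP35* against 599, 743 and 792 CPM in *sup35-218* (log2FC 1.42 ± 0.14). *CPR6*, a prolyl isomerase that binds Hsp90, had 637, 893, 1019 and 847 CPM in *SUP35* against 1671, 2017 and 2411 CPM in *sup35-218* (log2FC 1.26 ± 0.17). All 3 had groups far apart, with *sup35-218* replicate 3 the highest culture. *SSE1*, the exchange factor of Hsp70 (log2FC 0.97), *STI1*, the adaptor between Hsp70 and Hsp90 (0.91), *HSP26* (0.79) and *SSA2* (0.78) were higher by less. The members at the centre of the network did not follow: *HSP82* had 3479 against 3371 CPM (log2FC -0.05), *HSP104*, the disaggregase that cuts prion fibres, 4166 against 5378 CPM (0.37), and the regulator *HSF1* 169 against 153 CPM (-0.14), none of them called. The 2 lower members, *HSP32* (log2FC -1.73) and *HSP33* (-1.63), belong to a family of near-identical copies, so their separate values are uncertain.

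The heat shock element, to which Hsf1 binds, is a run of inverted GAA units. It was searched as 3 units in a row that alternate between GAA and its complement TTC, each 2 bases from the next, starting with either, on both strands, in the 500 bases before the start codon. These 2 forms overlap in longer runs, and 84 of 5645 promoters read (1.49%) held one. Of those 84 genes 28.6% were called higher and 4.76% lower, beside 10.7% and 12.6% of all genes tested. Among the chaperone genes 10 of 53 promoters held a match, and 6 of those 10 genes were higher, whereas 9 of the higher chaperone genes had none in that window. A match is a string of letters and not a measured site. Windows of 120 bases from RefSeq (R64) are shown for 3 of the higher chaperone genes as examples of a match, in capitals, written in the direction of the gene.
STI1, chrXV:380770-380889, plus strand: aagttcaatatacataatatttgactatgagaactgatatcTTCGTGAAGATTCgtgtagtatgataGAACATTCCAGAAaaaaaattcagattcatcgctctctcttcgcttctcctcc
SSE1, chrXVI:352396-352515, minus strand: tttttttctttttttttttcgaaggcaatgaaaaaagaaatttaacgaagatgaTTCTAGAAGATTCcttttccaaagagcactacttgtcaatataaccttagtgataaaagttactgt
SIS1, chrXIV:619839-619958, minus strand: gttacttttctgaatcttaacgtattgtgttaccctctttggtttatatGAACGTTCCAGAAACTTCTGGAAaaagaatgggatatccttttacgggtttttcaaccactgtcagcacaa
*SIS1*, the Hsp40 that hands aggregates to Hsp70, has 3 matches that run into each other and was among the smaller differences (log2FC 0.52 ± 0.15, a call lost without *SUP35* replicate 4 or *sup35-218* replicate 3), and *SSE1*, with 1 match, was 1.96-fold higher, so the count of matches and the size of the rise did not go together in these 3 genes.

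The endoplasmic reticulum showed a matching picture. Of 29 tested genes for folding in this compartment and its unfolded protein response, 10 were higher and 1 lower, with a median of 0.22. *KAR2*, the Hsp70 of the compartment, had 2112, 2611, 2750.4 and 2549.8 CPM in *SUP35* and 4018, 4850.2 and 5743 CPM in *sup35-218* (log2FC 0.96 ± 0.15, adjusted p = 0.000268). *HAC1*, the transcription factor of the response, had 168, 224, 209 and 192 CPM in *SUP35* against 344, 321 and 411 CPM in *sup35-218* (log2FC 0.86 ± 0.13), and a count per gene does not show whether its intron was removed. The disulphide enzymes *ERO1* (log2FC 0.60) and *PDI1* (0.58), the translocon gene *SEC61* (0.69) and the chaperone *LHS1* (0.69) were higher too. *FMO1*, an oxidase of the same compartment, had the largest difference (log2FC 1.08), but its call was lost without *SUP35* replicate 1 or 3 or *sup35-218* replicate 3 and under DESeq2. *ULI1* was lower (-0.72).

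Of 49 genes of vesicle coats and secretion 5 were higher (10.2%) and 2 lower, a share of higher genes near the 10.7% of all genes. *SEC24*, the cargo adaptor of the COPII coat that leaves the endoplasmic reticulum, had 293, 314, 322 and 297 CPM in *SUP35* and 761, 787 and 725 CPM in *sup35-218* (log2FC 1.31 ± 0.10, adjusted p = 2.02e-06). *SEC31* (log2FC 0.65), *SEC23* (0.63), the exchange factor *SEC12* (0.55) and the SNARE *SEC22* (0.58) were the other higher ones, and the grouping of these 5 by the COPII step was made after the values were seen. The larger of the 2 falls was that of *TRS20* (-0.56), and neither of the 2 was called without *sup35-218* replicate 3. In mitochondria 4 of 14 chaperone genes were higher and none of the 14 lower. The Hsp70 gene *SSC1* had a log2FC of 0.66. *HSP60* (0.53) and *HSP78* (0.51) were near the threshold, the first lost without *SUP35* replicate 1 and the second without *SUP35* replicate 4 or *sup35-218* replicate 3. *MDJ2* (0.94) rose from a low level of 4.91 against 9.52 CPM.

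Protein breakdown and protein synthesis were quiet beside this. Of 44 genes for the proteasome and its regulator, 1 was higher (*NAS2*, log2FC 0.75) and 3 lower, with *BLM10* (-0.70) and *RPN2* (-0.59) the largest, and the regulator *RPN4* was not called (0.37). Of 81 genes for the large ribosomal subunit none was called in either direction, and of 57 for the small subunit 1 was, *RPS14B* (log2FC 0.63 ± 0.14). Many ribosomal genes come in near-identical pairs, whose separate counts are uncertain. Ribosome biogenesis had 4 higher and no lower of 143 genes, with a median of 0.12, *ESF1* (0.65) and *DBP8* (0.58) being the largest. Its count of higher genes became 7, 10 and 9 without *SUP35* replicate 2, *SUP35* replicate 4 and *sup35-218* replicate 3.

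The charging of tRNA was the exception within translation. Of 22 cytosolic aminoacyl-tRNA synthetase genes 7 were lower and none was higher, with a median of -0.26. *KRS1*, the lysine enzyme and the most abundant of the called ones, had 2479.9, 2604, 2444 and 2334 CPM in *SUP35* and 1367, 1599.9 and 1153 CPM in *sup35-218* (log2FC -0.84 ± 0.13, adjusted p = 0.000272). The proline enzyme *YHR020W* (log2FC -0.82) and the asparagine enzyme *DED81* (-0.80) came next. Of 28 initiation factor genes *DED1* and *EAP1* (log2FC 0.59) were higher, of 11 elongation factor genes *EFB1* (0.54), and of 18 termination and mRNA surveillance genes *PAB1* (0.52), which codes for the poly(A)-binding protein, while *ECM32*, a helicase gene linked to termination, was lower (-0.86 ± 0.14).

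The general stress response, driven by Msn2 and Msn4 when protein kinase A is low, was divided. Of 72 tested targets 14 were higher (19.4%) and 11 lower (15.3%), with a median of 0.05. *HSP12*, a standard reporter of the response, had 1455, 1584, 1577 and 1252 CPM in *SUP35* and 2293, 2723 and 3123 CPM in *sup35-218* (log2FC 0.89 ± 0.15, adjusted p = 0.000436). *TMA10*, which codes for a protein found with ribosomes, had 770.5, 677, 912 and 629.6 CPM in *SUP35* against 2311, 2597 and 3633 CPM in *sup35-218*, and *HBT1* 52.4, 53.8, 61.02 and 48.3 CPM in *SUP35* against 167, 194 and 252 CPM in *sup35-218*. These groups were apart, with *sup35-218* replicate 3 the highest. *EGO4* was higher as well (log2FC 1.20). *CTT1*, the cytosolic catalase and another standard reporter, went the other way, at 1043, 552, 724 and 276 CPM in *SUP35* and 85.9, 59.99 and 91.8 CPM in *sup35-218* (log2FC -3.03 ± 0.39, adjusted p = 7.09e-05). Even *SUP35* replicate 4, the lowest control, stood above all 3 mutant cultures. *SIP18* (log2FC -1.58) and the MAP kinase phosphatase gene *SDP1* (-1.37) were lower too. Without *SUP35* replicate 1, or without *sup35-218* replicate 1 or 2, 7 of the targets were lower in place of 11. *MSN2* was not called (log2FC -0.04) and *MSN4* was higher (0.80 ± 0.14).

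The letters of the stress response element, AGGGG on either strand, were in 34.5% of the 5645 promoters read, and in 34.9% of those of higher genes and 38% of those of lower genes. Within the 72 targets, 64 promoters held it. It was present both in genes that rose and in *CTT1*, as these windows of 120 bases (RefSeq, R64, direction of the gene, element in capitals) show.
CTT1, chrVII:654206-654325, plus strand: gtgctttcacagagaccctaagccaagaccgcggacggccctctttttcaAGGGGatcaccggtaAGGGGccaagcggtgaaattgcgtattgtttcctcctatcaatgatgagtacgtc
HSP12, chrVI:106790-106909, plus strand: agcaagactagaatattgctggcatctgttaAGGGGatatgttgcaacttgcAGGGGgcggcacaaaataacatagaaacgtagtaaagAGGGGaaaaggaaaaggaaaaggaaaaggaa
TMA10, chrXII:783664-783783, minus strand: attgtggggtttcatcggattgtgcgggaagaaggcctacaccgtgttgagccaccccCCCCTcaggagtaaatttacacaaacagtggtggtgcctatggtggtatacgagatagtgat
The windows hold 2, 3 and 1 matches, and the full 500 bases hold 3, 5 and 1, beside log2FC values of -3.03 for *CTT1*, 0.89 for *HSP12* and 1.93 for *TMA10*.

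Enzymes of storage and of oxidant defence had calls in both directions, at shares not far from the 10.7% and 12.6% of all genes tested. In trehalose and glycogen metabolism 3 of 22 genes were higher (13.6%) and 4 lower (18.2%). *PIG1* (log2FC 1.05) and *GAC1* (0.75), both regulatory subunits for glycogen synthase phosphatase, were higher, and *TPS1*, the trehalose-phosphate synthase, had 2191, 2164, 1948 and 1661 CPM in *SUP35* and 1107, 1123 and 1288 CPM in *sup35-218* (log2FC -0.76 ± 0.14). *GLG1*, the primer of glycogen, was lower (-0.91). The count of lower genes was 2 without *SUP35* replicate 1, *sup35-218* replicate 1 or *sup35-218* replicate 2, and 7 without *sup35-218* replicate 3. In oxidant defence 6 of 42 genes were higher and 6 lower (14.3% each), and *CTT1* belongs to this list as well as to the general stress targets. *OYE3*, a flavin oxidoreductase, had 31.1, 48.5, 47.6 and 35.1 CPM in *SUP35* against 109, 111 and 139 CPM in *sup35-218* (log2FC 1.56 ± 0.18), and sulfiredoxin *SRX1* rose from a low level (8.46 against 21.8 CPM, log2FC 1.36). *GRX4*, a glutaredoxin that also restrains the iron regulator Aft1, fell to 54.4, 65.6 and 56.2 CPM from 272, 189.6, 199 and 117 CPM (log2FC -1.73 ± 0.22, adjusted p = 5.75e-05), and *GTT1* was lower too (-1.003). The regulators *YAP1* (log2FC -0.21) and *SKN7* (0.48) were not called.

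Genes of sugar use and its regulation were more often higher than lower. Yeast represses the use of other sugars and of respiration while glucose is plentiful, through Mig1 and hexokinase 2 among others. Adr1 and Hap4 are activators of genes that glucose represses. In the list of these regulators 10 of 41 were higher and none lower, with 2 lower without *SUP35* replicate 3 or 4 and 3 without *sup35-218* replicate 1, although the median was -0.03 and turned to above 0 under upper-quartile scaling. *HXK2*, the main hexokinase, had 599.8, 908, 855 and 929.6 CPM in *SUP35* and 1833, 1931 and 2037 CPM in *sup35-218* (log2FC 1.23 ± 0.15, adjusted p = 5.43e-05). *ADR1* had 176, 157, 208 and 179 CPM in *SUP35* against 303, 340.4 and 552 CPM in *sup35-218* (log2FC 1.15 ± 0.20), and *HAP4* 139, 123, 150.4 and 127 CPM in *SUP35* against 297, 265 and 261 CPM in *sup35-218* (log2FC 1.02 ± 0.13). Groups were apart for each. *MIG1* was higher as well (0.63). So genes for regulators that act in repression and for activators of repressed genes were higher together.

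Of 54 genes for the use of other carbon sources 14 were higher (25.9%) and 5 lower, with a median of 0.18. The genes of maltose and isomaltose were well represented: *IMA2* had 61.6, 58.3, 77.1 and 48.9 CPM in *SUP35* and 146, 146 and 251 CPM in *sup35-218* (log2FC 1.56 ± 0.19), and *IMA1* (log2FC 1.13), *MAL12* (1.41), *MAL32* (1.17) and *MAL11* (1.09) were higher, with the reservation that *MAL12* and *MAL32* are near-identical and *IMA1* and *IMA2* are close relatives. These genes of maltose and isomaltose were named after their values were seen. *MAN2*, a mannitol dehydrogenase gene, had 76.1, 83.4, 78.1 and 44.3 CPM in *SUP35* against 300.3, 328 and 345 CPM in *sup35-218*, and *RGI2*, a gene of respiratory growth, 16.1, 14.5, 17.9 and 10.1 CPM in *SUP35* against 59.4, 63.1 and 96.8 CPM in *sup35-218*. The 5 lower members were led by *ADH2* (log2FC -1.25 ± 0.20), *IDP2* (-0.89) and *AGX1* (-0.84). A Mig1-like string (GGGG straight after GC, GT, CC or CT, both strands, forms that can overlap) stood in 22.7% of all promoters read, in 28.1% of those of higher genes, in 20.4% of those of lower genes, and in 37 of the 54 in this list. The *SUC2* promoter, shown for its 3 matches in capitals, read as follows at chrIX:36885-37004 (RefSeq, R64, plus strand).
SUC2: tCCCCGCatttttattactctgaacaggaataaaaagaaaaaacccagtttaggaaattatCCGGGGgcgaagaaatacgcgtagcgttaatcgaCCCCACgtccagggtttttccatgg
*SUC2*, the invertase, was the gene with the largest rise in the comparison among the well counted ones, at 177, 290.3, 299.7 and 283 CPM in *SUP35* against 1035, 1345 and 1642 CPM in *sup35-218*. At stage 1 it stood between these groups, at 362, 691 and 537 CPM.

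In the trunk pathway of glucose, 8 of 31 genes of glycolysis and gluconeogenesis were higher and 1 lower, with a median of 0.27. *PGK1*, phosphoglycerate kinase, had 1668, 2713, 2044 and 2278 CPM in *SUP35* and 3884, 3975 and 3961 CPM in *sup35-218* (log2FC 0.86 ± 0.16), and the minor pyruvate kinase *PYK2* (1.16) and the fructose-bisphosphate regulator *PFK27* (0.91) were higher. Without *SUP35* replicate 4 the lower genes were 3. The lower gene with all cultures was *PYC2*, a pyruvate carboxylase, with 1525, 1208, 1341 and 1034 CPM in *SUP35* against 392, 453 and 377 CPM in *sup35-218* (log2FC -1.65 ± 0.14, adjusted p = 4.39e-06). Its partner *PYC1* was slightly higher (log2FC 0.51), a call lost without *SUP35* replicate 1 or *sup35-218* replicate 3. The pyruvate decarboxylases were divided as well: *PDC1* had 2510.5, 3958, 2769.7 and 4143 CPM in *SUP35* against 6069, 5569.5 and 5837 CPM in *sup35-218* (log2FC 0.80 ± 0.18), *PDC6* 38.98, 31.8, 30.5 and 21.99 CPM in *SUP35* against 172, 54.9 and 71.7 CPM in *sup35-218* (log2FC 1.68 ± 0.31), and *PDC5* 156, 119.7, 109 and 103 CPM in *SUP35* against 45.3, 39.3 and 29.4 CPM in *sup35-218* (log2FC -1.69 ± 0.17). The *PDC6* level of *sup35-218* replicate 1 was far above those of replicates 2 and 3, and the call held without it. Of alcohol dehydrogenases, *ADH5* fell (log2FC -1.91 ± 0.20), and the list of fermentation, acetate and glycerol enzymes had 4 higher and 4 lower of 30, among them *ALD5* (-0.87).

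Such opposite moves of 2 genes with one activity recurred elsewhere. *IRA1* and *IRA2* both code for proteins that switch Ras off. *IRA2* had 448, 320.2, 494 and 332 CPM in *SUP35* and 608, 649 and 1027 CPM in *sup35-218* (log2FC 0.93 ± 0.20), and *IRA1* had 318, 279.9, 321 and 304 CPM in *SUP35* against 205, 176 and 203 CPM in *sup35-218* (log2FC -0.65 ± 0.10). In the same Ras-PKA list *PDE2*, the phosphodiesterase that removes cyclic AMP, was higher (log2FC 0.87 ± 0.14), *RAS2* was lower (-0.55, lost without *SUP35* replicate 1 or 2 or *sup35-218* replicate 2), and in all 2 of 18 genes were higher and 3 lower, the latter becoming 5 without *SUP35* replicate 3 and 1 without *sup35-218* replicate 2. *NDE1* and *NDE2* code for the dehydrogenases that feed cytosolic NADH to the respiratory chain. *NDE2* had 534, 326, 397 and 167 CPM in *SUP35* and 54.1, 51.2 and 46.7 CPM in *sup35-218* (log2FC -2.82 ± 0.35), and *NDE1*, at 311 against 449.9 CPM on average, was higher (0.53), a call lost without *sup35-218* replicate 1. The pairs were picked after the values were seen, and no test was made of how often paralogs part in this way.

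Genes of mitochondrial energy metabolism did not move as one. In the tricarboxylic acid and glyoxylate cycle 5 of 45 genes were higher and 9 lower, with a median of -0.08. The higher ones included *CIT3* (log2FC 0.86), *SDH1* (0.73) and *CIT2* (0.70 ± 0.15), the peroxisomal citrate synthase that reports retrograde signalling. The lower ones were led by the carrier *ODC2*, with 1302, 1510.1, 1250.3 and 1182 CPM in *SUP35* and 481, 632 and 373 CPM in *sup35-218* (log2FC -1.41 ± 0.18), then *SHH4* (-1.07) and *IDP2*. Without *SUP35* replicate 1, 8 genes of this list were higher in place of 5. In the respiratory chain 5 of 34 genes were higher, among them *GUT2* (1.14), *NDI1* (1.01) and *SDH1*, and 7 lower, led by *NDE2*, *COX26* and *CYC1* (-0.62, lost without *SUP35* replicate 1 or *sup35-218* replicate 3). These counts were fragile, since only 2 genes of the list were lower without *SUP35* replicate 1 and 4 without *sup35-218* replicate 3, and 8 were higher without *sup35-218* replicate 3. ATP synthase had 4 higher and no lower of 23 genes, the largest being *ATP17* (0.75), *ATP10* (0.74, lost without *sup35-218* replicate 3) and *ATP19* (0.71). Ubiquinone synthesis and assembly factors had none higher and 6 lower of 41, led by *PET117* (-0.69), and 3 lower without *sup35-218* replicate 2 or 3. *ERV1*, of the import machinery, was lower (log2FC -1.18 ± 0.10).

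Lists of nucleotide and cofactor synthesis differed in direction. Calls were mostly lower for de novo purines, NAD, folate and the list of biotin, pyridoxine, riboflavin and pantothenate. Pyrimidine metabolism had more higher calls than lower ones. In purine salvage 3 of 25 genes were higher (12%), near the 10.7% of all genes tested, and 1 was lower. In de novo purine synthesis 11 of 13 genes were lower and none higher, with a median of -0.59, though only 6 were lower without *SUP35* replicate 1. *ADE17*, the last enzyme before inosine monophosphate, had 2948, 3807, 2939.6 and 4024 CPM in *SUP35* and 1793, 1682 and 1520.3 CPM in *sup35-218* (log2FC -1.04 ± 0.15, adjusted p = 0.000142), and *ADE57* (log2FC -1.14) and *ADE1*, named above, were lower by about as much. The regulator *BAS1* was lower by less (-0.57), with groups that overlapped and a call lost without *SUP35* replicate 1 or 2 or *sup35-218* replicate 1 or 3. Beyond this pathway, *IMD2*, an IMP dehydrogenase gene that yeast raises when guanine nucleotides are short, was higher (log2FC 1.11 ± 0.11). In pyrimidine metabolism 6 of 26 genes were higher and 3 lower. The higher ones were small differences in genes such as *CDC21* (0.68) and *FUR1* (0.60), and only 2 of them were called without *SUP35* replicate 1. The lower ones were *URA10*, *URA8* (-0.76) and *FUI1* (-0.64, lost without *sup35-218* replicate 3).

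Of 31 tested genes for biotin, pyridoxine, riboflavin and pantothenate 11 were lower (35.5%) and 2 higher, with a median of -0.28. *TPN1*, the vitamin B6 transporter, had 945, 856, 823 and 689 CPM in *SUP35* and 261, 275 and 214 CPM in *sup35-218* (log2FC -1.73 ± 0.13, adjusted p = 2.38e-06). *SNZ1*, a gene of vitamin B6 synthesis and the most abundant of the list, had 4098, 4850.02, 4218 and 4708 CPM in *SUP35* against 2001, 2366 and 1362 CPM in *sup35-218* (log2FC -1.23 ± 0.18), and *RIB5*, riboflavin synthase, 814, 699, 754 and 553 CPM in *SUP35* against 293, 320.3 and 256 CPM in *sup35-218* (log2FC -1.28 ± 0.14). *BIO3*, of biotin synthesis, was lower too (log2FC -1.31). For NAD, 7 of 24 genes were lower and 3 higher. The route from tryptophan was divided at its first step: *BNA2*, the entry dioxygenase, was higher (log2FC 0.93 ± 0.10), and *BNA1* (-1.36 ± 0.12), *BNA6* (-1.10 ± 0.12), *BNA5* (-0.73) and *BNA4* (-0.60) were lower. *BNA1* had 779.9, 713, 686 and 673 CPM in *SUP35* and 299, 284 and 252 CPM in *sup35-218*. The uptake gene *NRT1* was lower (-0.90) and the adenylyltransferase *NMA2* higher (0.66).

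In folate and one-carbon metabolism 5 of 24 genes were lower and 1 higher. *FOL2*, GTP cyclohydrolase, had 913, 971, 834 and 792 CPM in *SUP35* and 386, 425 and 371 CPM in *sup35-218* (log2FC -1.16 ± 0.11), and *GCV3*, of the glycine cleavage complex, was lower (-0.92). Thiamine genes had 3 higher and 4 lower of 21, and 5 higher without *SUP35* replicate 2 or *sup35-218* replicate 1 or 3. The higher ones, *THI5* (log2FC 1.25), *THI13* (0.79) and *THI11* (0.71), are near-identical copies and cannot be told apart well, and *PET18* (-1.06), *SNZ2* (-0.72, lost without *SUP35* replicate 2 or *sup35-218* replicate 1) and *THI22* (-0.68) were lower. *SAM4* (-1.11) and *ARO8* (-1.19) were lower among the 18 genes of polyamines and S-adenosylmethionine, which had 2 higher and 3 lower.

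Among lipid genes, *OLE1* and *FAA4* of fatty acid synthesis rose strongly, and calls in the ergosterol, phospholipid and sphingolipid lists were mostly lower. *OLE1*, the only fatty acid desaturase of yeast, had 121, 116, 101 and 113 CPM in *SUP35* and 276, 272 and 272 CPM in *sup35-218* (log2FC 1.28 ± 0.09, adjusted p = 1.54e-06). *FAA4*, an acyl-CoA synthetase, had 126, 121, 139 and 164 CPM in *SUP35* against 235, 238 and 279 CPM in *sup35-218* (log2FC 0.87 ± 0.11). Both were apart from the controls in all cultures, and *MGA2*, the activator of *OLE1*, was at 119 against 171 CPM (log2FC 0.52), a call lost without *SUP35* replicate 1. Those were the 3 higher genes of 27 in fatty acid synthesis, with 1 lower, and 5 were higher without *sup35-218* replicate 2. In ergosterol synthesis 9 of 42 genes were lower and 2 higher (4 without *sup35-218* replicate 2), with a median of -0.21: *ERG28* (log2FC -1.07 ± 0.13), *ERG24* (-0.92) and *ERG5* (-0.81) were the largest, and the regulators *UPC2* (0.34) and *ECM22* (0.22) were not called.

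Among genes of inositol and phospholipids 8 of 42 were lower and 2 higher. *PLB2*, a phospholipase gene, had 97.5, 61.1, 64.8 and 44.9 CPM in *SUP35* and 27.04, 23.5 and 21.8 CPM in *sup35-218* (log2FC -1.48 ± 0.22), and *PCT1* (-0.74) and *OPI3* (-0.70) followed. *ITR1*, the inositol transporter and the most abundant gene of the list, was also lower (-0.67 ± 0.13). *INO2*, the activator of this group, was itself higher (0.65 ± 0.11), while its partner *INO4* (-0.33) and the repressor *OPI1* (-0.33) were not called. In sphingolipid synthesis 6 of 26 were lower and 1, *SUR1* (0.73), higher, with *LAG1* (-1.10 ± 0.09), a ceramide synthase subunit, the lowest, and *YSR3* (-0.87) and *TSC3* (-0.80) next. Peroxisomes and fatty acid oxidation had 2 higher of 46, led by *POT1* (0.87), a count that became 5 without *SUP35* replicate 1 and 4 without *sup35-218* replicate 1 or 2, and 6 lower, led by *PEX2* (-0.94), *PEX34* (-0.88) and *PEX21* (-0.73).

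Iron genes were raised more often than lowered. Of 40 tested members of the Aft1 regulon and its surroundings 11 were higher (27.5%) and 6 lower, with a median of 0.14. *MRS4*, the mitochondrial iron carrier, had 40.3, 37.2, 44.4 and 36.4 CPM in *SUP35* and 90.4, 91.4 and 122 CPM in *sup35-218* (log2FC 1.35 ± 0.14, adjusted p = 1.53e-05). *TIS11*, which directs the decay of mRNAs of iron-using proteins, was higher from a low level (log2FC 0.99 ± 0.17), as was the wall mannoprotein gene *FIT2* (0.81). *AFT1* itself had 72.7, 63.3, 67.7 and 71.2 CPM in *SUP35* against 111, 109 and 125 CPM in *sup35-218* (log2FC 0.74 ± 0.10), and *AFT2* was not called (0.19). The multicopper oxidase *FET3* was higher (log2FC 0.75). Those that fell were led by *GRX4*, described above, the reductase *FRE2* (-0.97) and the haem oxygenase *HMX1* (-0.81 ± 0.20). GCACCC, the core of the Aft1 site, on either strand, was in 7.6% of all promoters, and in 28 of these 40, of which 8 were higher and 3 lower. Over all promoters with GCACCC 15.6% were higher and 11.9% lower. For copper, the transporter *CTR1* was higher (log2FC 0.96 ± 0.22), one of 3 higher and 1 lower of 24 genes of copper and zinc. In the phosphate regulon 2 of 34 were higher, led by *PHO89* (0.73), and 5 lower, with *CTF19* (-1.47), *PHO5* (-1.28) and the polyphosphatase *PPN1* (-1.06 ± 0.12) lowest. *CTF19* codes for a kinetochore protein and not for an enzyme of phosphate use.

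Nitrogen genes were called often. Of 44 tested genes for ammonium, allantoin and nitrogen-repressed functions 8 were higher and 15 lower (34.1%), with a median of -0.23. *PUT4*, the proline permease, had 287, 124, 151 and 75.5 CPM in *SUP35* and 58.02, 40.7 and 47.2 CPM in *sup35-218* (log2FC -1.72 ± 0.34), and *SUP35* replicate 1 was far above the other controls. *GLT1*, glutamate synthase, had 906, 750.3, 676 and 645 CPM in *SUP35* against 341, 368 and 318 CPM in *sup35-218* (log2FC -1.12 ± 0.13, adjusted p = 4.33e-05), and the urea transporter *DUR3* was lower as well (-1.28). *PTR2*, the peptide transporter, had 34.2, 48.8, 50.6 and 38.2 CPM in *SUP35* against 83.9, 91.96 and 134 CPM in *sup35-218* (log2FC 1.27 ± 0.19). *PUT1*, proline oxidase (log2FC 1.08), *DUG3* (1.06) and glutamine synthetase *GLN1* (0.80 ± 0.11) were higher. So the permease and the oxidase for proline went in opposite directions. Of the regulators *GAT1* was at the threshold (-0.50, lost without *SUP35* replicate 1 or 2 or *sup35-218* replicate 2, under upper-quartile scaling, without the filter and with stage 3 cultures alone), and *GLN3* (-0.34) was not called. Among 30 amino acid permease genes 6 were higher and 2 lower (4 without *SUP35* replicate 4), with *MMP1*, for S-methylmethionine, at 55.1, 68.96, 63.7 and 107 CPM in *SUP35* and 238, 93.7 and 377 CPM in *sup35-218* (log2FC 1.68 ± 0.34), and *AGP3* (1.33) and *TAT1* (0.90) behind it. The groups overlapped for *MMP1* and *AGP3*, although both were called.

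At the cell surface, calls among targets of the cell integrity pathway were mostly higher and those among anaerobic mannoproteins mostly lower. Of 38 tested PIR and cell integrity genes 12 were higher (31.6%) and 1 lower, with a median of 0.32. *PIR3*, a wall protein with internal repeats, had 401, 285, 261 and 202 CPM in *SUP35* and 978, 806 and 731 CPM in *sup35-218* (log2FC 1.54 ± 0.18, adjusted p = 3.62e-05). *PST1* had 530.5, 415, 434 and 305 CPM in *SUP35* against 1168, 1116 and 730.3 CPM in *sup35-218* (log2FC 1.25 ± 0.18), and *PIR1* 283, 282, 275 and 226 CPM in *SUP35* against 669.5, 598 and 535 CPM in *sup35-218* (log2FC 1.17 ± 0.11). In all 3 *sup35-218* replicate 1 was the highest culture, unlike the chaperone genes. *HSP150*, the most abundant called PIR gene, was higher too (1.02 ± 0.15), and so was *RLM1*, the transcription factor of the pathway (0.90 ± 0.09), but not its kinase *SLT2* (0.18). The lower member was *PIR5*, at 50.8, 42.5, 45.2 and 30.9 CPM in *SUP35* against 12.4, 10.2 and 7.53 CPM in *sup35-218*. A string with the core of the Rlm1 site, CTA and TAG with 4 bases between them, was in 9.21% of all promoters and in 10 of these 38, of which 7 were higher and none of the 10 lower. Over all promoters with the string 10.2% were higher and 11.7% lower, near the 10.7% and 12.6% of all genes tested.

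Of 77 genes for glucan, chitin and mannan 14 were higher and 3 lower, with a median of 0.05. The glucanase *EXG1* (log2FC 0.83 ± 0.12), the sensor-like gene *MTL1* (1.17) and, from a low level, the chitin deacetylase *CDA1* (1.51) were higher, and the sensor gene *WSC4* (-1.32 ± 0.19) was lower. Of the TIR, DAN and PAU genes 19 of 31 passed the filter, and 6 of those were lower and 1, *DAN4* (0.81), higher. Most are subtelomeric and nearly identical, with few counts. *TIR4* was the best counted of those called, with 69.5, 47.5, 45.2 and 47.96 CPM in *SUP35* and 21.97, 20.7 and 17.3 CPM in *sup35-218* (log2FC -1.40 ± 0.17), and 3 members were lower without *sup35-218* replicate 2. Adhesion genes were split: *ASH1* (1.04), *FLO10* (0.91) and *MSS11* (0.71) were among 4 higher of 16, and *AGA1* (-1.17, lost without *sup35-218* replicate 2), *STE12* and *FLO11* (-0.88) among 5 lower, which became 3 without *SUP35* replicate 1 and 2 without *sup35-218* replicate 2.

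**Figure D3:**
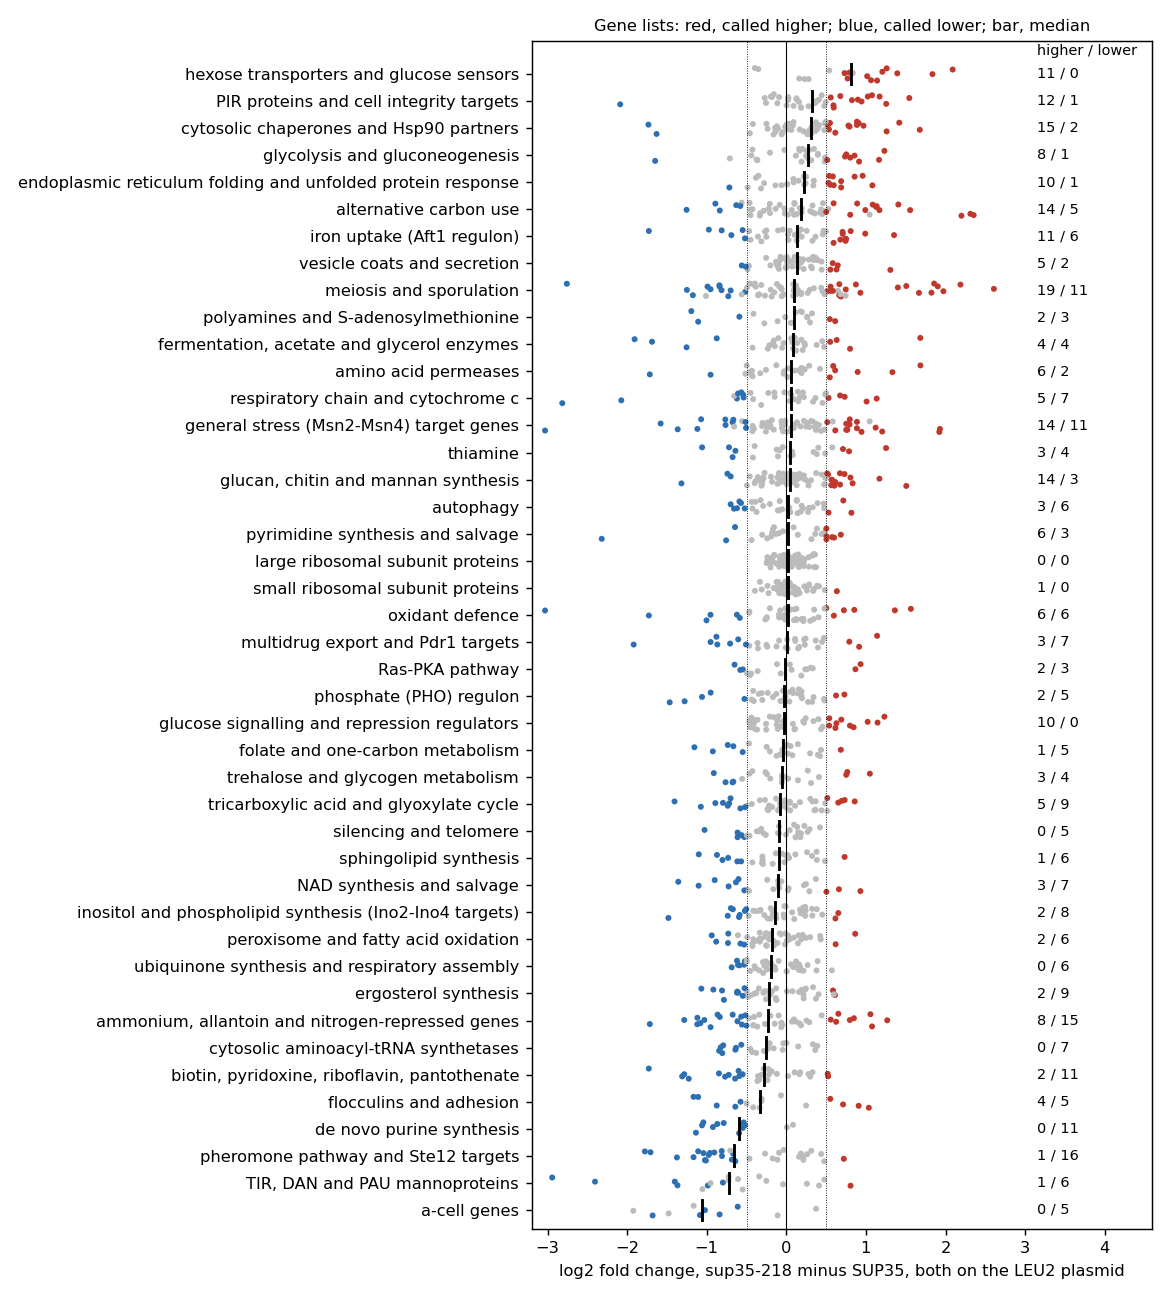
Log2 fold change of each tested member of the gene lists with at least 5 calls, and of both ribosomal subunits. The lists of amino acid synthesis, of cell cycle regulators and of plasmid and genotype genes are not drawn. Red is for genes called higher, blue for genes called lower and grey for genes not called, with a black bar at the median. The numbers at the right count higher and lower members, and hexose transporters (11 and 0) lie at one end and a-cell genes (0 and 5) at the other, with ribosomal proteins near 0.

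Genes of the pheromone pathway were lower much more often than higher. Haploid yeast detects the pheromone of the other mating type through a G protein and a MAP kinase cascade that ends in Ste12, and the genes of this pathway are among its own targets. Of 32 tested genes 16 were lower (50%) and 1 higher, with a median of -0.66. *STE4*, the G protein beta subunit, had 419, 419, 379 and 385 CPM in *SUP35* and 164, 168 and 132 CPM in *sup35-218* (log2FC -1.37 ± 0.11, adjusted p = 2.57e-06). *SST2*, which shuts the signal off, had 165, 102, 146 and 95.6 CPM in *SUP35* against 42.3, 35.1 and 34.4 CPM in *sup35-218* (log2FC -1.78 ± 0.19), and *FUS1*, a cell fusion gene that pheromone induces, 119.8, 75.9, 74.7 and 47.96 CPM in *SUP35* against 29.9, 17.5 and 25.8 CPM in *sup35-218* (log2FC -1.71 ± 0.28). The groups were apart for all 3. *STE12*, the transcription factor, had 87.4, 68.96, 66.1 and 68.7 CPM in *SUP35* against 37.5, 34.5 and 29.6 CPM in *sup35-218* (log2FC -1.11 ± 0.13), and the MAP kinase *FUS3* was lower as well (-0.90 ± 0.10). *PRM10* was the higher one (0.72), and 3 genes were higher without *SUP35* replicate 1 or *sup35-218* replicate 1. *PRM7*, given above as higher beside *BSC1*, was not in this list. At stage 1 these genes stood above both later groups in several cases, *FUS1* for example at 182, 157 and 121 CPM and *SST2* at 259, 249 and 202 CPM.

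Of the genes specific to mating type, 2 of 5 for alpha cells were lower, or 4 of them without *SUP35* replicate 3 or *sup35-218* replicate 1. *SAG1*, the alpha agglutinin, had 545, 392, 422 and 358 CPM in *SUP35* and 132, 125 and 124 CPM in *sup35-218* (log2FC -1.76 ± 0.16, adjusted p = 5.83e-06), the largest difference of the 2 lower genes among 5 of alpha cells, the other being the receptor *STE3* (log2FC -0.78 ± 0.17). *MF(ALPHA)1* was not called (-0.49 ± 0.15). The a-cell genes were low and scattered. *STE2* had 68.7, 18.6, 40.7 and 16.5 CPM in *SUP35* and 12.1, 14.997 and 21.6 CPM in *sup35-218*, and *AGA2* 42.1, 8.502, 15.8 and 3.36 CPM in *SUP35* against 3.38, 5.94 and 4.77 CPM in *sup35-218*, with overlap between the groups and no call. Of 10 in the wider list 5 were lower, *MFA1* (-1.68, from a low level, lost without *sup35-218* replicate 1 or 3), *STE14* (-1.09) and *ASG7* (-1.02, lost without *SUP35* replicate 1 or any single *sup35-218* culture) having the largest differences, and 8 or 3 when *SUP35* replicate 4 or either of *sup35-218* replicates 1 and 3 was left out. *STE14* codes for a methyltransferase that both mating types express. *SUP35* replicate 1 was the highest control for *STE2*, *AGA2* and *MFA1*, and the stage 1 cultures were higher still, with *STE2* at 233, 133 and 71.3 CPM.

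**Figure D4:**
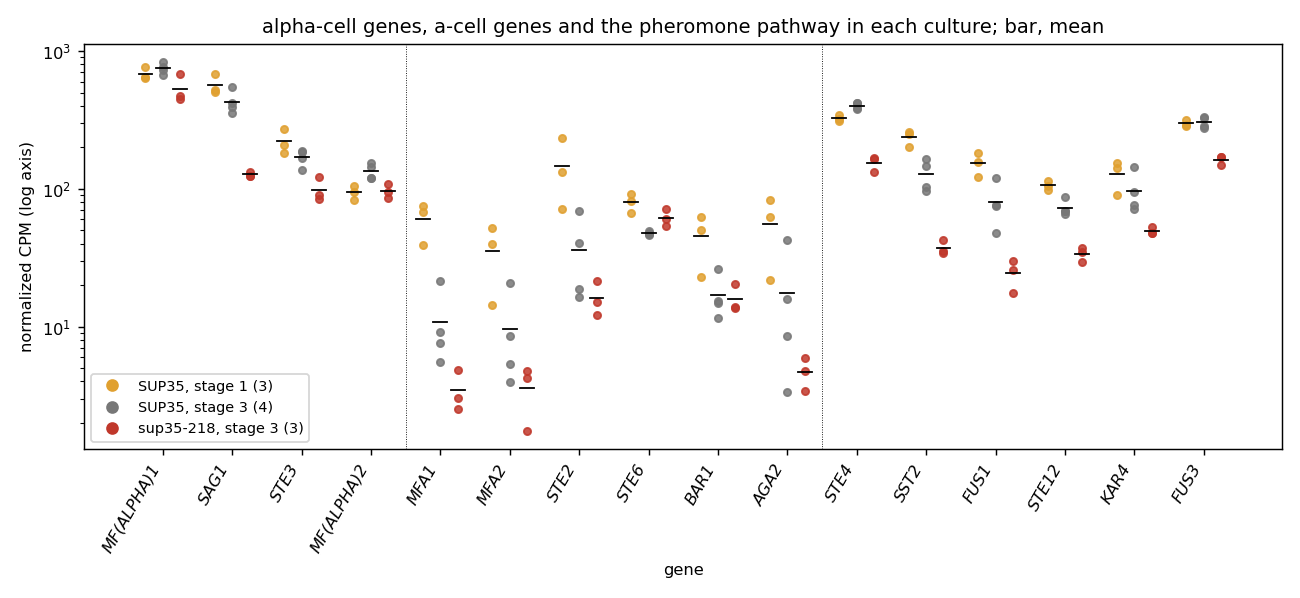
Normalised CPM, on a log axis, of 4 alpha-cell genes, 6 a-cell genes and 6 genes of the pheromone pathway in each culture, with orange for *SUP35* at stage 1, grey for *SUP35* at stage 3, red for *sup35-218* and a bar at each mean. The sum of the alpha-cell genes lies above that of the a-cell genes in all 10 cultures, and the pathway genes shown are lowest in *sup35-218*.

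The pheromone response element, TGAAACA on either strand, was in 11.7% of the 5645 promoters and in 20 of the 32 pathway genes, of which 13 were lower and none of the 20 higher. Over all promoters with the string the median log2FC was -0.01 and 12.4% were lower, beside 12.6% of all genes tested. The windows of *FUS1* and *SST2* are shown (120 bases, RefSeq, R64, direction of the gene) because both genes fell by more than 3-fold.
FUS1, chrIII:71573-71692, plus strand: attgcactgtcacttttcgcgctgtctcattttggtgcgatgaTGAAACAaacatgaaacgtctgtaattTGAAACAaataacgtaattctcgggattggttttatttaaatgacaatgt
SST2, chrXII:1041549-1041668, minus strand: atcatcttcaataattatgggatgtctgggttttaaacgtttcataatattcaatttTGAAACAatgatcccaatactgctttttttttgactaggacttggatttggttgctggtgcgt
The *FUS1* window holds 2 copies and that of *SST2* 1 copy.

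Of 70 tested genes of meiosis and sporulation 19 were higher (27.1%) and 11 lower, at very low levels for most of those that were higher. *MAM1* (log2FC 2.61) had 0.7902, 0.945, 0.535 and 2.14 CPM in *SUP35* and 4.79, 5.66 and 9.53 CPM in *sup35-218*, with few reads in any culture. *SAE3* (2.19, 0.768 against 3.69 CPM) and *OSW1* (1.97, 1.199 against 4.85 CPM) were of the same kind. The better counted *SPR28*, a septin of sporulation, had 5.79, 5.04, 2.68 and 6.11 CPM in *SUP35* against 14.1, 21.5 and 19.3 CPM in *sup35-218* (log2FC 1.90 ± 0.25). The regulators *IME1* (0.65, 10.5 against 16.4 CPM) and *UME6* (0.15) were not called. Lower genes were led by *YSW1*, with 163, 56.7, 89.1 and 31.2 CPM in *SUP35* and 10.99, 14.1 and 12.8 CPM in *sup35-218* (log2FC -2.76 ± 0.45), *SPO11* (-1.25 ± 0.15) and *SPS100* (-1.17). The list of silencing and telomere genes had 5 lower of 28, *EST3* (-1.03 ± 0.17) and *HST2* (-0.61) ahead, and none higher, with 3 lower without *SUP35* replicate 1 or *sup35-218* replicate 1 or 2.

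Of 31 genes of multidrug export and Pdr1 targets 7 were lower, led by *YOR1*, *TPO4* (log2FC -0.95) and *QDR3* (-0.88), and 3 higher, of which *AQR1* was the best counted (0.91), with 5 higher without *SUP35* replicate 1 and 6 without *sup35-218* replicate 1. The regulator *PDR1* (0.47), its relative *PDR3* (-0.36) and the main pump *PDR5* (0.16 ± 0.20) were not called. Of 35 autophagy genes 3 were higher, led by *ATG17* (0.82) and *ATG15* (0.72), or 6 and 5 without *sup35-218* replicate 1 and 2, and 6 lower, led by *ATG14* (-0.70), *ATG38* (-0.66) and *ATG13* (-0.62), a count that became 3 without *SUP35* replicate 1 or *sup35-218* replicate 3. Of 19 vacuolar ATPase genes 2 were lower, *VMA4* (-0.67) ahead. Of 24 pumps and cation channels 3 were higher, *ALR2* (0.67) among them, and 1 lower.

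The position of genes was examined because an extra copy of a chromosome, or of a part of one, shifts all the genes it carries. The median log2 ratio of each chromosome to the *SUP35* mean ran from -0.10 to 0.07 over the 3 *sup35-218* cultures and from -0.09 to 0.05 over the *SUP35* cultures. Medians over 31 neighbouring tested genes ran from -0.41 to 0.38 along all 16 chromosomes in single *sup35-218* cultures, and from -0.18 to 0.17 in single *SUP35* cultures. Each *SUP35* culture is part of the mean it was compared with, which narrows its range. The *sup35-218* range also holds any difference in expression between the groups, so these ranges are not measured alike. The number of gene copies was not tested. Each chromosome had between 19.3% and 31.7% of its tested genes called.

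Calls were more frequent near chromosome ends. Within 10 kb of an end 12 of 89 tested genes were higher and 23 lower, which is 39.3% called. From 10 to 20 kb it was 23 and 24 of 108, or 43.5%, and from 20 to 30 kb 22 and 20 of 131, or 32.1%. Beyond 100 kb it was 448 and 524 of 4435, or 21.9%, near the 23.3% of all genes. The share was thus higher near the ends in both directions of change. Genes near the ends include many families of near-identical copies, whose separate counts are uncertain. Bins of other widths gave 40.7% within 15 kb and 21.9% beyond 60 kb.

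**Figure D5:**
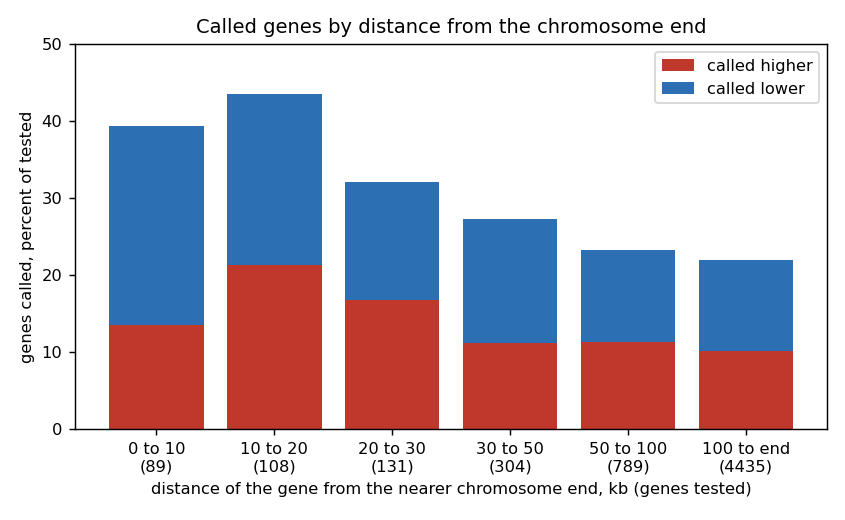
Share of tested genes called higher (red) and lower (blue) by distance of the gene from the nearer chromosome end in kb, with the number of genes tested under each bar. The share is 39.3% and 43.5% in the first pair of bins and 21.9% beyond 100 kb.

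The size and level of genes also went with direction. Of the 1179 tested genes with the shortest coding regions (78 to 615 bases) 102 were higher and 192 lower, with a median log2FC of -0.11, and of 1170 genes with 990 to 1431 bases 139 and 143, with a median of -0.01. Of the 1171 genes with the highest level 120 were higher and 233 lower, with a median of -0.10, and of the 1172 with the lowest level 189 and 152, with a median of 0.03. RNA quality values were not used here, and the part that length or level plays in single calls was not tested. The amino acid pathways, among the most abundant transcripts, were lower in 45 of 76 genes, and the Gcn4 element TGACTC was in 25.2% of promoters of lower genes, 9.25% of those of higher genes and 13.1% of all. *GCN4* itself was at 915 against 837 CPM and was not called (log2FC -0.13 ± 0.11).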

How the data were processed

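The authors deposited raw read counts per gene, made from paired-end reads of a strand-marking library kit with Trimmomatic, HISAT2 and featureCounts on the R64 genome. The strand setting of the counting was not given in the sources used here, so genes that overlap another are uncertain. Each of the 10 columns of values matched 1 culture, and totals ran from 3267203 to 4024015 counts at stage 3, a depth at which 3 counts are 7.46e-05% to 9.18e-05% of a culture (counting error only). The 28 mitochondrial genes had no counts. Symbols came from RefSeq for 5924 of 6607 genes, and 99.58% of these had the same start and end there.

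Counts were fitted with edgeR 4.0.16 (R 4.3.3) in a quasi-likelihood model of 3 groups and 10 cultures, with TMM scaling, genes filtered by filterByExpr at a minimum count of 10, Benjamini-Hochberg adjustment over all 5856 genes tested and two-sided tests. CPM are TMM-scaled. On simulated counts for these 5856 genes the test recovered 88% of changes of 0.75 and 100% of changes of 1.5 on the log2 scale. The simulation changed 200 genes, as many up as down, and gave 197 calls, of which 188 were true. The comparison itself had 1363 calls, so the simulated setting differed from that of the data. The cultures, the 69 gene lists and the rules were chosen with earlier results of these data known. Of the 69 lists, 2210 genes in all, 2177 genes were tested, and 2 entries matched no gene. Genes named are those of the plasmids and genotype, the 10 largest rises and falls (mean count 50 or more, groups apart), up to 3 called members per list in each direction, list regulators and the most abundant members. Others were named after their values were seen. The alternatives were other scalings, filters and thresholds, DESeq2 1.42.0, stage 3 cultures alone, a replicate block and leaving out each culture.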

Additional observations from a re-analysis of the deposited data

Results flagged for a closer look

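Among the 291 genes named, 23 (7.9%) had 1 of the 4 *SUP35* cultures standing apart from the other 3, at a gap that chance gives in about 1 group in 20. *SUP35* replicate 1 was apart at the upper end for *SUP35* (809.4 CPM against 505.3 to 547.4), *ARG82* (443 against 270.3 to 277.8), *CYC1* (584.2 against 410.9 to 417.8), *LAG1* (260.8 against 234.9 to 237.4), *STE12* (87.45 against 66.1 to 68.96) and *TIR4* (69.54 against 45.23 to 47.96). The same culture was apart at the lower end for *SUC2* (176.7 against 283.2 to 299.7), *FUR1* (43.2 against 57.81 to 60.46), *PYC1* (913.5 against 1094 to 1122) and *TAT1* (98.51 against 121 to 122.8). *SUP35* replicate 2 was apart for *RPS14B*, at 140.4 CPM against 103.8 to 109.7.

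*SUP35* replicate 3 was low for *LEU2* (1733 CPM against 2574 to 2743), *UBC1* (292.8 against 366.4 to 372.1) and *VMA4* (207.4 against 258.1 to 259), and high for *ATP10* (18.47 against 10.8 to 11.97) and *SIS1* (660.5 against 560.5 to 574). *SUP35* replicate 4 was low for *PIR1* (225.7 CPM against 275.1 to 283.4), *PRM10* (45.82 against 64.55 to 67.44), *SOL2* (43.38 against 58.07 to 61.09) and *PUT1* (46.43 against 57 to 58.88), and high for *BNA4* (212 against 183.9 to 187.9), *GRX8* (40.93 against 28.34 to 30.29) and *PDR1* (82.17 against 76.39 to 77.34). The calls of *SUP35*, *ARG82* and *SUC2* held with replicate 1 left out.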

How the results depend on the processing

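Counts of calls depended on the fold threshold. With glmTreat against 0.5 on the log2 scale 189 genes were higher and 272 lower, above a log2FC of 1 it was 137 and 218, and with no fold threshold 1082 and 1215. Other settings gave 598 to 728 higher and 657 to 798 lower genes, and with each culture left out in turn 593 to 757 and 578 to 806. The replicate number as a block gave 650 and 798, and of the named genes *HSP78*, *SIS1*, *NDE1* and *HTA2* lost their call. Residuals of same-numbered cultures correlated at 0.027, 0.10 and 0.176, so the numbers were not taken as pairs, and *sup35-218* replicate 1 correlated best with *SUP35* replicate 4. Of the 259 named genes called, 236 stayed called in all 14 settings that keep the threshold. Directions reversed only for 4 genes that were not called: under the block *RSM24* had 0.071 and *SUP45* 0.047, and with a culture left out *HSP82* ranged from -0.16 to 0.16, *MSN2* from -0.14 to 0.064, *RSM24* from -0.14 to 0.074 and *SUP45* from -0.0699 to 0.058. Genes of few CPM, such as those of sporulation and the PAU family, are limited by depth.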

Other observations

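Of 14 genes of the pentose phosphate pathway 3 were higher and 1 lower, the higher ones being *SOL1* (log2FC 0.92 ± 0.14), *SOL2* (0.91 ± 0.13) and the transketolase *TKL1* (0.56 ± 0.11). Of 25 genes of purine salvage and guanine nucleotides 3 were higher, among them *PNP1* (0.79 ± 0.11), and 1 lower. Of 11 histone genes *HHF2* (0.68 ± 0.11) and the linker histone *HHO1* (0.65 ± 0.14) were higher and *HTA2* (-0.52) lower, a call lost without *SUP35* replicate 1 or 4 or *sup35-218* replicate 2 or 3, and under upper-quartile scaling. Of 18 hexose transporter and sensor genes 11 were higher and none lower, a count of 11 whichever culture was left out. One of them, *HXT10*, had too few counts to be tested when at least 10 counts were required in every culture. How far reads are shared between related transporter genes was not tested. Of 59 cell cycle regulators 15 were higher and 7 lower.

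Other groups were close to the share over all genes or below it. None of 15 RNA polymerase I genes was called in either direction, and of 22 genes of RNA polymerase III and its factor 1 was higher, *RPC82* (0.54), and 1 lower, *TFC3* (-0.70 ± 0.10). Of 75 mitochondrial ribosomal genes 1 was higher and 2 lower (none without *sup35-218* replicate 2 or 3), of 33 mitochondrial import genes 3 were lower (1 without *SUP35* replicate 4 or *sup35-218* replicate 2 or 3, under upper-quartile scaling or with stage 3 cultures alone), of 12 haem genes 1 was higher (3 without *SUP35* replicate 1 or 2) and 1 lower, and of 11 vacuolar protease genes 1, the inhibitor *PAI3* (-0.77), was lower.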
